A study of Homo sapiens with 6 samples.

Results

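FAM163B is the gene on the long arm of chromosome 9 whose introns overlap GC0643, a gene that the study predicted from sequence missing from the reference genome. The 10 genes described here are FAM163B and 9 genes around it, SURF1, SURF4, REXO4, CACFD1, SLC2A6, ADAMTSL2, DBH, SARDH and BRD3. They were chosen by name and matched by Ensembl ID, and they make up 10 of the 58825 genes counted. From SURF1 to BRD3 they span 717 kb of GRCh38, from position 133351758 to 134068535 of chromosome 9, and 9 other annotated genes lie among them. RNA came from the gastric cancer line HGC-27, in 3 libraries with the label GC0643 overexpression and 3 with the label Vector control. The paper describes retroviral infection and puromycin selection for cells that stably expressed GC0643, and does not say separately how the vector line was made. Whether the lines were clones or pools is not given in the sources used here. Reads of GC0643 were not analysed here, and the values do not check which libraries carried it. The labels number the replicates without naming separate cultures, so that p-values measure the spread between these libraries, which may be technical.

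The 10 genes share a neighbourhood, not a pathway. SURF1 helps to assemble cytochrome c oxidase in mitochondria, SURF4 is a receptor that loads secreted cargo in the endoplasmic reticulum, and REXO4 is a predicted RNA exonuclease of the nucleolus. CACFD1 carries a domain of the Flower calcium channel family, SLC2A6 encodes the hexose transporter GLUT6, and BRD3 is a BET protein that reads acetylated histones. ADAMTSL2 is a secreted glycoprotein of microfibrils, DBH converts dopamine to noradrenaline, SARDH breaks down sarcosine in mitochondria, and FAM163B is a little-studied gene that codes for a small predicted membrane protein. GC0643 was introduced by a retrovirus, so the comparison asks how the genes resident around FAM163B stood in cells with and without the added GC0643.

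The libraries held between 20376722 and 24069166 counts. Of all genes, 19528 passed the filter on low counts and were compared with edgeR's quasi-likelihood test, and 8 of the 10 locus genes were among them. FAM163B and DBH were not. Over all genes tested, the log2 fold change was lower the higher the transcript's GC content (across genes, which are no independent replicates, Spearman's correlation was -0.668), and the locus genes tested had a median GC content of 60.1% against 49.4% over all genes tested. Leaving out Vector control replicate 2 took the number of genes past an adjusted p of 0.05 from 0 to 3813, so values without this library and values corrected for GC content are given beside the locus genes where they change a call, and GC-corrected values for the partner genes. Of the markers checked, VIM and the other mesenchymal markers, FN1, CDH2 and ZEB1, were counted at a summed 3120 to 3440 CPM (counts scaled to a common library total, with TMM factors) in all libraries. Only 3 of these 4 had a mean over 1 CPM. The 3 that were tested had positive log2 fold changes of 0.03 to 0.50, with a median of 0.40, and of 0.13 with GC correction. At an unadjusted p under 0.05 (edgeR) 2 of the 3 were higher, and 1 with GC correction, against 13.1% and 2.91% of all genes tested. The 5 epithelial markers KRT8, KRT18, KRT19, EPCAM and CDH1 summed to 4.25 to 8.33 CPM with GC0643 overexpression and 5.82 to 6.94 CPM with Vector control, nearly all of it KRT8. The 7 gastric markers summed to at most 1.13 CPM, so that, KRT8 apart, the epithelial and gastric markers checked were close to absent from the RNA. Endothelial markers summed to at most 0.467 CPM, lymphoid and myeloid markers to 5.85 to 7.73 CPM, and erythroid markers to 7.75 to 10.8 CPM with GC0643 overexpression and 13.3 to 16.5 CPM with Vector control, whose part in any result was not tested. Only 1 of the 3 erythroid markers had a mean over 1 CPM, and 1 had 0 counts in all libraries. The 1 erythroid marker tested had a log2 fold change of -0.59, and of -0.38 with GC correction.

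The reference sequences before 3 start sites are shown to set the scarcely counted FAM163B and DBH beside BRD3, an expressed member. SURF4, the highest, is not shown because an annotated exon reaches into its window, which holds 42 CpGs. Each is the 250 bases before the RefSeq start site (GRCh38.p14), 5′ to 3′ on the gene's own strand, and no annotated exon lies in the windows shown. The BRD3 window lies within the annotated BRD3 gene, whose outermost start is at 134068535, whereas the FAM163B and DBH windows lie outside their genes. Capitals mark CpG dinucleotides.
FAM163B, minus strand, chr9:133609390-133609639: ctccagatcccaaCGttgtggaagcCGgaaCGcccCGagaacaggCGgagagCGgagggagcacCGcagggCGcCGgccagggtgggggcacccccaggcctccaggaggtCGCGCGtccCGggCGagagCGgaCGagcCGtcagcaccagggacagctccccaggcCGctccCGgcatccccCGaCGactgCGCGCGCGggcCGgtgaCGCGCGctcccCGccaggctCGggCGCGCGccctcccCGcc
DBH, plus strand, chr9:133636113-133636362: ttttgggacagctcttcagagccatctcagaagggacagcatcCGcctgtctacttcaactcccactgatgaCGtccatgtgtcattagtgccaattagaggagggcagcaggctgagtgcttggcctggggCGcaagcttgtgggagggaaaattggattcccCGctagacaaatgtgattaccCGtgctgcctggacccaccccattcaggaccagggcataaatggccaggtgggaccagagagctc
BRD3, minus strand, chr9:134068027-134068276: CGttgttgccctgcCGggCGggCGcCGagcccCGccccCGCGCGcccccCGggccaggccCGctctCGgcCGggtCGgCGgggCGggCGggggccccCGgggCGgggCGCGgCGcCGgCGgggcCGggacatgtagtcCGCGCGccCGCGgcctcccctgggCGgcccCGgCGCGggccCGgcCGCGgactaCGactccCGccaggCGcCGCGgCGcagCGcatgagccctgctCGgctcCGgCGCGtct
The FAM163B window holds 35 CpGs and a GC content of 77.6%, the DBH window 5 CpGs and 55.6%, and the BRD3 window 48 CpGs and 86.8%, against a median of 11 CpGs over the 35116 RefSeq start sites. The CpG count of FAM163B exceeded that of 94.2% of these starts and was above those of SURF1 with 33, SLC2A6 with 28, REXO4 with 24 and CACFD1 with 23, all of which had at least 261 counts in every library. CpG number in this window and read count therefore did not rank the locus genes in the same order. GGGCGG, the GC box, was searched on both strands with overlapping matches counted and was found 6 times in the BRD3 window, in neither the FAM163B nor the DBH window, and in 42.6% of all starts. In the windows not shown it was found 5 times for SARDH and 1 time for ADAMTSL2, which had few reads. For the expressed genes it was found 4 times each for CACFD1 and SLC2A6, 3 for SURF4, 2 for SURF1 and 1 for REXO4. The number of GC boxes therefore did not follow read count either. TGACGT, the core of the cyclic AMP response element, was found once in the DBH window and in 7.1% of all starts. The absence of these letters from a window says nothing about any factor.

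FAM163B (ENSG00000196990, chr9:133577081-133609389 of GRCh38, minus strand) was almost without reads. No read was counted for it in any of the 3 libraries with GC0643 overexpression, while Vector control replicates 1 to 3 had 1, 19 and 1 counts. A single library therefore held 90.5% of the 21 FAM163B counts, and the other 5 libraries held 0 or 1. In CPM the gene stood at 0.0493, 0.922 and 0.0416 in the Vector control replicates. The groups did not overlap, and the exact two-sided permutation test gave p = 0.1, the smallest that 3 against 3 libraries allow. In Vector control replicates 1 and 3 the separation rests on 1 count each. Non-overlap in this direction occurred in 10.5% of all genes tested, to which FAM163B does not belong. Set against a floor of 3 counts over the overexpression group, which is 0.0477 CPM on unscaled totals, the gene stood 6.75-fold higher in Vector control. This fold is not a lower limit, because only the overexpression group was set at a bound. The 21 counts of Vector control have a 95% Poisson interval of 13 to 32.1, and 19 of them lay in replicate 2. Without Vector control replicate 2 that group had 2 counts, which is under the floor, and no fold can be given. The 19 counts have a 95% counting interval of 11.4 to 29.7 (exact Poisson, counting error only), which lies above the counts of every other library.

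The FAM163B pattern was set beside those of all other genes counted. FAM163B was the only 1 of 58825 genes with at least 15 counts in 1 library and at most 1 in each of the others. These bounds were set after its values had been seen, so they describe the pattern and do not measure how rare it is. With the looser bounds of at least 10 counts and at most 2 in each other library, GC0643 overexpression replicates 1 to 3 held 2, 0 and 5 such genes and Vector control replicates 1 to 3 held 4, 1 and 1. The single gene in Vector control replicate 2 was again FAM163B. With at least 10 counts and at most 3 in each other library, the numbers were 5, 3 and 6 for GC0643 overexpression and 4, 2 and 9 for Vector control. No other annotated gene (GENCODE version 44) overlaps the gene body of FAM163B on either strand, and its annotated neighbours did not share the pattern. In Vector control replicate 2 ADAMTSL2 had 12 counts, as many as in Vector control replicate 1, DBH had 0 and the noncoding RNA ENSG00000261018 had 0. MYMK, a muscle fusion protein encoded beyond ADAMTSL2, had its only count of all 6 libraries there. FAM163A, the only other member of the family, had 1, 1 and 1 counts with GC0643 overexpression and 4, 0 and 0 with Vector control.

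**Figure D1:**
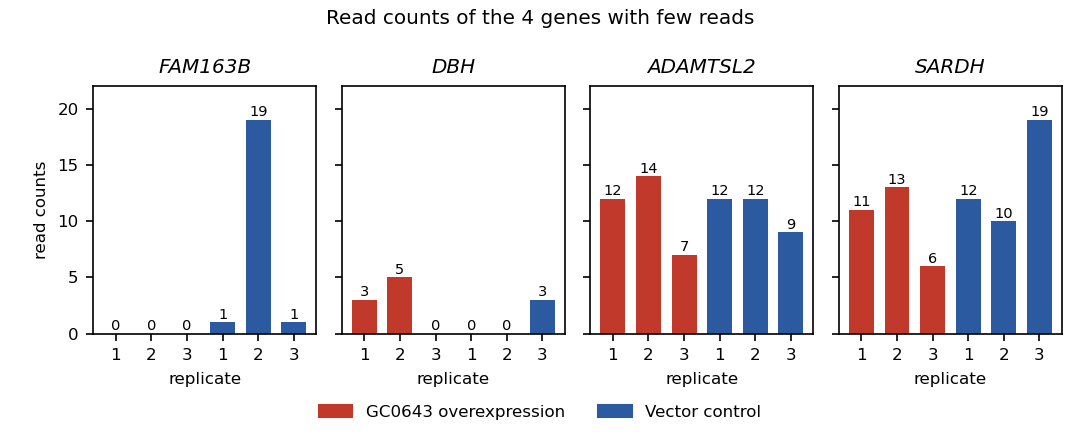
Read counts (vertical axis) of the 4 locus genes with fewer than 20 counts in every library, by replicate (horizontal axis), with GC0643 overexpression in red and Vector control in blue. FAM163B has 19 counts in Vector control replicate 2 and 0 or 1 elsewhere, whereas ADAMTSL2 and SARDH have between 6 and 19 counts in every library.

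DBH (ENSG00000123454, chr9:133636363-133659329, plus strand), the marker enzyme of noradrenergic cells, was close to the limit of detection. It had 3, 5 and 0 counts with GC0643 overexpression and 0, 0 and 3 with Vector control, so that libraries with and without reads occurred in both groups. Summed over the groups this was 8 counts (95% Poisson interval 3.45 to 15.8) against 3 (0.619 to 8.77), and a difference was not detectable at this depth (exact permutation test, p = 0.4). DBH-AS1, an antisense RNA that shares 118 exonic bases with DBH, had 4, 1 and 3 counts and 1, 0 and 5 counts. Since the strand setting of the counting is not given, reads in the shared bases cannot be assigned to either. TH, the enzyme that starts catecholamine synthesis, had 0 counts in all 6 libraries, which at 3 counts over a group allows up to 0.0477 CPM with GC0643 overexpression and 0.046 with Vector control.

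ADAMTSL2 (ENSG00000197859, chr9:133532164-133575519, plus strand) and SARDH (ENSG00000123453, chr9:133663560-133739955, minus strand) were detected in every library but at few reads. ADAMTSL2 had 12, 14 and 7 counts with GC0643 overexpression and 12, 12 and 9 with Vector control, the same sum of 33 in both groups. Its log2 fold change (GC0643 overexpression over Vector control) was 0.03 with a 95% interval of -0.91 to 0.98 (edgeR, adjusted p = 0.97), and it ranged from -0.18 to 0.25 when 1 library was left out. SARDH had 11, 13 and 6 counts against 12, 10 and 19, with the ranges overlapping and the highest count in Vector control replicate 3. Its log2 fold change was -0.39 with an interval of -1.33 to 0.54 (edgeR, adjusted p = 0.6), -0.17 with GC correction, and between -0.63 and -0.15 when 1 library was left out. For both genes the interval reaches beyond a 1.5-fold change (0.58 on the log2 scale), in both directions for ADAMTSL2 and downwards for SARDH, so that a difference of that size was not detectable at this depth.

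The other 6 genes were expressed at more than 100 counts in every library. SURF4 (ENSG00000148248, chr9:133361450-133376166, minus strand) took the most reads, at 298, 355 and 327 CPM with GC0643 overexpression and 391, 346 and 373 CPM with Vector control. The highest library with GC0643 overexpression lay above the lowest of Vector control, so the groups overlapped. The means were 327 ± 28.4 CPM (SD, n = 3) and 370 ± 22.6 CPM (SD, n = 3), and the log2 fold change of SURF4 was -0.18 (SE 0.12, 95% interval -0.42 to 0.07, adjusted p = 0.37 from edgeR). SURF4 accounted for 59.6% to 62% of all counts of the 10 genes in each library. Together the 10 genes drew 0.0514%, 0.0565% and 0.0529% of the counts of GC0643 overexpression replicates 1 to 3 and 0.0625%, 0.0572% and 0.0614% of those of Vector control.

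SURF1 (ENSG00000148290, chr9:133351758-133356676, minus strand), which starts head to head with SURF2, stood at 32.7, 36.2 and 30.7 CPM with GC0643 overexpression and 37, 34 and 45.7 CPM with Vector control. Vector control replicate 2 lay below the highest library with GC0643 overexpression, and replicate 3 was the highest of all. The log2 fold change of SURF1 was -0.23 (SE 0.15, 95% interval -0.54 to 0.08, adjusted p = 0.36 from edgeR). Without Vector control replicate 2 it was -0.32 (edgeR, unadjusted p = 0.031, adjusted p = 0.1), and without that library but with GC correction it was -0.09. Without Vector control replicate 3 it was -0.10. SURF1 shares 121 exonic bases, 6.88% of its exon length, with SURF2 on the opposite strand, and reads there cannot be told apart. SURF2 had 389, 558 and 488 counts against 600, 494 and 633, a log2 fold change of -0.22 (adjusted p = 0.42 from edgeR).

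REXO4 (ENSG00000148300, chr9:133406059-133418096, minus strand) stood at 40.3, 48.7 and 47.9 CPM with GC0643 overexpression and at 55.4, 56.1 and 47.4 CPM with Vector control. Vector control replicate 3 lay among the libraries with GC0643 overexpression, and the other 2 above all of them. Its log2 fold change was -0.22 (SE 0.13, 95% interval -0.50 to 0.07, adjusted p = 0.36 from edgeR), and -0.30 without Vector control replicate 3 (edgeR, unadjusted p = 0.034, adjusted p = 0.47). CACFD1 (ENSG00000160325, chr9:133459965-133470848, plus strand), which ends beside the 3′ end of SLC2A6, stood at 12.2, 15.1 and 14.4 CPM with GC0643 overexpression and at 16, 12.8 and 19 CPM with Vector control, a wide spread within both groups. Its log2 fold change of -0.20 (95% interval -0.57 to 0.16, adjusted p = 0.49 from edgeR) became -0.34 without Vector control replicate 2 (edgeR, unadjusted p = 0.045, adjusted p = 0.13), -0.05 without that library but with GC correction, and -0.06 without Vector control replicate 3.

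SLC2A6 (ENSG00000160326, chr9:133471094-133479127, minus strand) was the only tested locus gene whose groups did not overlap. It stood at 38.9, 39.5 and 36.1 CPM with GC0643 overexpression and at 43.2, 42.7 and 44.7 CPM with Vector control. Non-overlap in this direction occurred in 10.5% of all genes tested. The means were 38.2 ± 1.8 CPM (SD, n = 3) and 43.6 ± 0.991 CPM (SD, n = 3), a gap larger than the SD within either group. The model across all genes nevertheless gave a log2 fold change of -0.19 with SE 0.12 and an interval of -0.45 to 0.08 (edgeR, adjusted p = 0.38), and the exact permutation test gave p = 0.1, the smallest possible. With GC correction the log2 fold change of SLC2A6, whose transcript is 63.4% GC, was 0.02 (95% interval -0.19 to 0.23).

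BRD3 (ENSG00000169925, chr9:134030305-134068535, minus strand), at the far end of the interval, had the smallest SD over all 6 libraries, relative to its mean, of the 10 genes. It stood at 76.7, 80.3 and 75 CPM with GC0643 overexpression and at 87, 78.9 and 83.7 CPM with Vector control, with Vector control replicate 2 inside the range of the other group. Its log2 fold change was -0.11 (SE 0.12, 95% interval -0.36 to 0.14, adjusted p = 0.6 from edgeR). BRD3OS on the opposite strand shares 1283 exonic bases with BRD3, 18.6% of the exon length of BRD3, and had a log2 fold change of -0.11 as well (adjusted p = 0.61 from edgeR). The values of the pair are therefore not independent where the counting ignored strand.

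**Figure D2:**
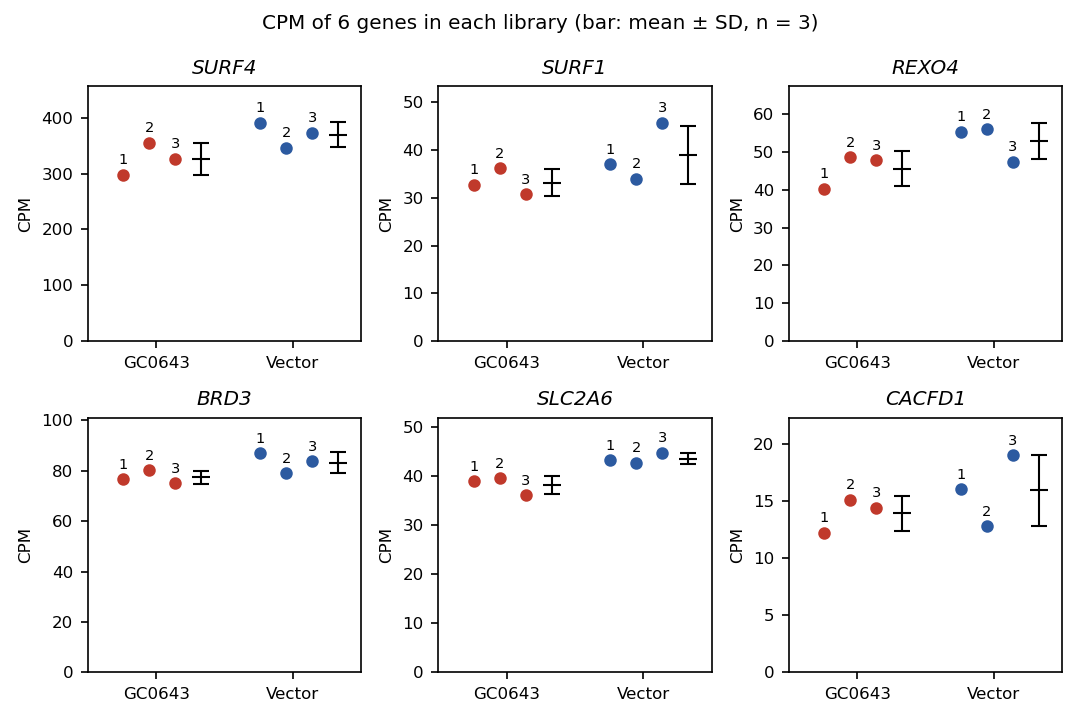
CPM (vertical axis, from 0) of the 6 locus genes with over 100 counts per library, 1 point per library labelled with its replicate number, GC0643 overexpression in red and Vector control in blue, and mean ± SD (n = 3) in black. The points of both groups overlap for SURF4, SURF1, REXO4, BRD3 and CACFD1 and are apart for SLC2A6.

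Compared as CPM per kilobase of exon, the levels spread over orders of magnitude within the interval. SURF4 led with 101 ± 9.55 (SD over 6 libraries), above 98.4% of the 19869 protein-coding genes, and its lowest library exceeded the highest of every other locus gene. SURF1 followed at 20.5 ± 3 and REXO4 at 18.6 ± 2.21, whose ranges of 17.4 to 26 and 15.2 to 21.2 overlapped, with SURF1 higher in 4 of 6 libraries. BRD3 at 11.7 ± 0.648 and SLC2A6 at 11.6 ± 0.91 overlapped as well, with BRD3 higher in 4 of 6. CACFD1 at 4.24 ± 0.701 lay apart from its neighbours in the order. ADAMTSL2 at 0.111 ± 0.0274, SARDH at 0.107 ± 0.0319, FAM163B at 0.0563 ± 0.123 and DBH at 0.0304 ± 0.0361 had ranges that overlapped from each to the next, so their order was within the spread of the libraries. Among the 10 genes, in map order, the expressed genes SURF1 to SLC2A6 lie on one side, a run of 4 genes with few or no reads, ADAMTSL2, FAM163B, DBH and SARDH, follows, and BRD3 closes the interval. Other genes of the interval do not keep to this order. VAV2, with a mean of 952 counts, lies between SARDH and BRD3, and STKLD1, with a mean of 53.5, between SURF4 and REXO4.

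No locus gene passed a threshold in the comparison of GC0643 overexpression with Vector control. With edgeR's quasi-likelihood test 0 of 8 had an adjusted p under 0.05, against 0% of all genes tested. At an unadjusted p under 0.05, 0 of 8 passed by the quasi-likelihood test, the likelihood ratio test, DESeq2 or limma voom, against 18.3% of all genes tested by the quasi-likelihood test. With a fold change over 1.5 required as well, 0 of 8 passed, against 2.47% of all genes tested. With GC correction 0 of 8 passed an unadjusted p of 0.05, against 6.13% of all genes tested in either direction and 3.22% on the lower side. Without Vector control replicate 2, SURF1 and CACFD1 were lower at that threshold, which is 2 of 8 against 14.2% of all genes tested, and 0 of 8 were lower at an adjusted p of 0.05, against 4.36%. With GC correction and without that library 0 of 8 were lower at the unadjusted threshold, against 5.25%. Without Vector control replicate 3, REXO4 was lower at the unadjusted threshold, 1 of 8 against 2.66% of all genes tested. The adjusted p of the 8 genes ranged from 0.36 to 0.97. For 6 of them, SURF1, SURF4, REXO4, CACFD1, SLC2A6 and BRD3, the 95% interval lay within a 1.5-fold change in both directions. This held for 4 genes without Vector control replicate 2, where SURF1 and CACFD1 passed the bound on the lower side, and for 3 with the replicate block, where REXO4 did too. In bulk RNA, fewer cells making a transcript and less of it per cell cannot be told apart.

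Most log2 fold changes lay on the same side. Of the 8 genes, 7 had a negative value and 1, ADAMTSL2, a positive one (-0.02 with length correction), with a median of -0.20. Over all genes tested 48.1% were negative, and the median was 0.02. The GC content of the 8 transcripts ranged from 52.3% for BRD3 to 65.2% for ADAMTSL2, on the upper side of all genes tested. With GC correction 5 were negative and 3 positive, and the median was -0.05, against 0.0012 over all genes tested. SURF1 then had a log2 fold change of -0.07, SURF4 -0.10, REXO4 -0.07, BRD3 -0.04, CACFD1 0.03 and ADAMTSL2 0.24, and every interval included 0.

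**Figure D3:**
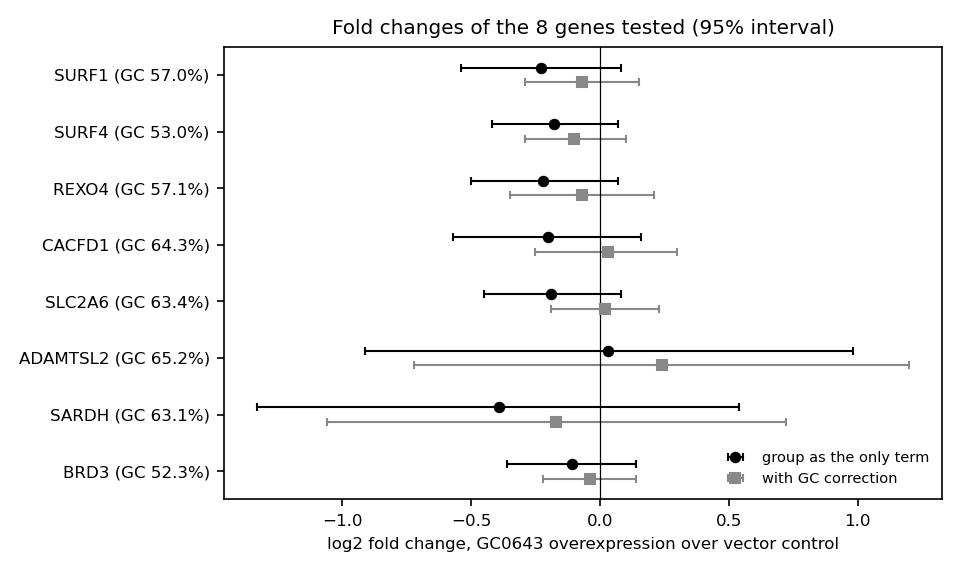
Log2 fold change of GC0643 overexpression over Vector control (horizontal axis) for the 8 locus genes tested (vertical axis, in map order, with the GC content of the transcript), as points with 95% intervals. Black circles are the fit with the group as its only term and grey squares the fit with GC correction, and in both fits every interval includes 0.

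The genes between and beside the 10 were read in the same fit. Of the 9 other genes of the interval 6 were tested, all with a negative log2 fold change between -0.33 and -0.06, and 0 passed an unadjusted p of 0.05 by edgeR. VAV2, a guanine nucleotide exchange factor, had a log2 fold change of -0.06, ADAMTS13, which cleaves von Willebrand factor, -0.19, STKLD1 -0.33 and the noncoding RNA ENSG00000235138 -0.12. With GC correction these 6 had a median of 0.01, with 3 positive and 3 negative. Within 1 Mb on each side of FAM163B, 27 other genes were tested, of which 11 were positive and 16 negative, with a median of -0.10, and -0.03 with GC correction. At an unadjusted p under 0.05, 2 were lower and 1 was higher, against 5.26% and 13.1% of all genes tested. These were WDR5-DT, MED22 and EEF1A1P5, named after their values were seen, with log2 fold changes of -1.15, -0.32 and 0.36 and adjusted p-values of 0.26 from edgeR. Across the rest of chromosome 9, 385 genes were positive and 405 negative, with a median of -0.02.

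**Figure D4:**
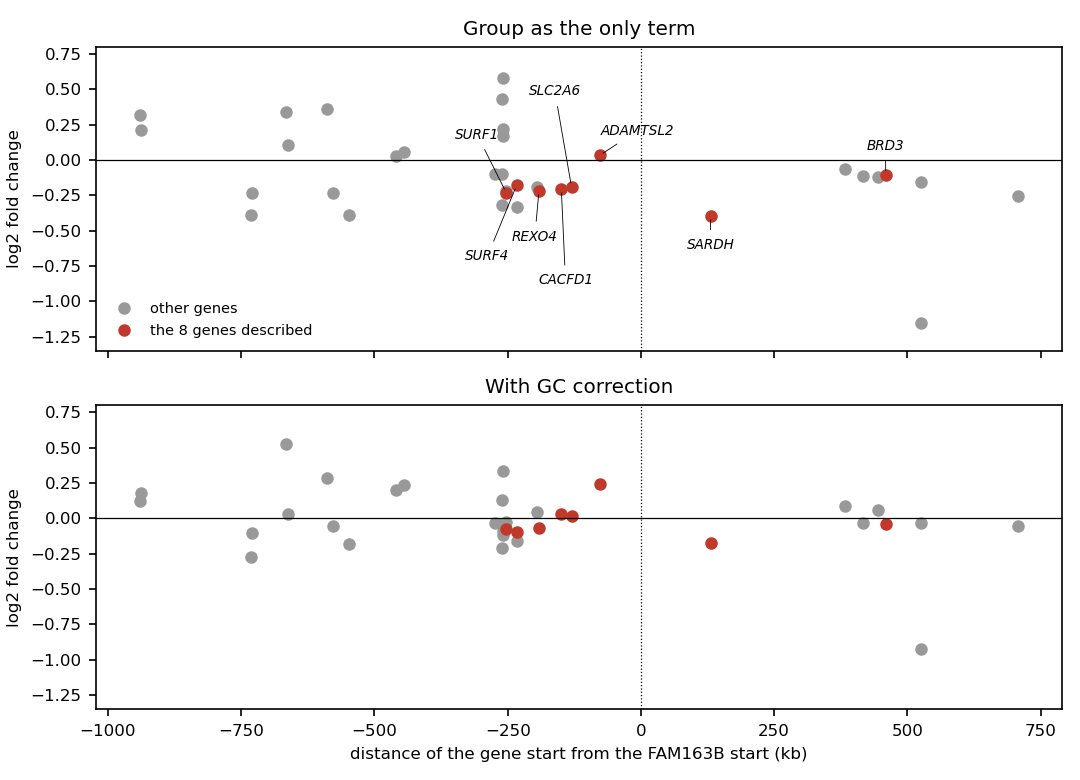
Log2 fold change (vertical axis) of each gene tested within 1 Mb of FAM163B against the distance of its start from that of FAM163B in kb (horizontal axis, dotted line at 0), without GC correction above and with it below. Red points are the 8 locus genes and grey points the other 27, and with GC correction the median of the red points moves from -0.20 to -0.05.

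The median deviation of the locus genes from their own means, on the log2 scale, was -0.10, 0.03 and -0.13 for replicates 1 to 3 of GC0643 overexpression and 0.13, -0.01 and 0.12 for those of Vector control. GC0643 overexpression replicate 2 and Vector control replicate 2 thus lay next to each other, between the remaining libraries of both groups. The genes most like the mean profile of the 8 tested genes were ENSG00000267077 (Pearson's r = 0.995 over 6 libraries), IBA57 (0.991) and C22orf39 (0.987), which is a description of 6 points chosen from all genes tested. Of the locus genes, BRD3 followed the mean profile most closely (0.95) and ADAMTSL2 least (0.257). Each of the 8 is itself part of that mean, which raises its correlation.

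Partners of the locus genes were followed with lists of genes that work with them, counted at an unadjusted p below 0.05 (edgeR). Over all genes tested 13.1% were higher and 5.26% lower at that threshold, and 2.91% and 3.22% with GC correction. With all 6 libraries, 0 genes of these lists had an adjusted p under 0.05. Without Vector control replicate 2 part of them did, as did 3813 of the 19988 genes tested. SEC23A, HEXIM2 and LTBP1 then had adjusted p-values of 0.01, 0.01 and 0.029 from edgeR, while SPR and QDPR had 0.15 and 0.13. With GC correction and without that library, 0 of all genes tested passed. Of 26 genes of export from the endoplasmic reticulum, the step SURF4 serves, 12 were higher and 1 was lower, and 1 and 0 with GC correction. SEC23A, a coat subunit, had a mean of 66.1 CPM (SD 3.38, n = 3) in GC0643 overexpression and of 44.2 CPM (SD 12.7, n = 3) in Vector control, which is 0.58 as a log2 fold change, 0.30 with GC correction and 0.84 without Vector control replicate 2. CNIH1 and TMED10, which sort and carry cargo, had log2 fold changes of 0.41 and 0.45, and of 0.07 and 0.18 with GC correction. Of 24 genes that assemble cytochrome c oxidase, the task of SURF1, 5 were higher and 2 lower, and 0 and 1 with GC correction. LRPPRC, which stabilises mitochondrial mRNAs, COX20 and COX11 had log2 fold changes of 0.40, 0.46 and 0.35, and of 0.14, 0.16 and 0.02 with GC correction. Of 11 tested genes of the BET family and its partners, 2 were higher and 2 lower, and 0 and 1 with GC correction. HEXIM2, an inhibitor of P-TEFb, had a log2 fold change of -0.65 and of -0.44 with GC correction. The P-TEFb cyclin CCNT2 and the mediator subunit MED1 had 0.43 and 0.40, and 0.09 and 0.22 with GC correction.

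Of 20 tested ADAMTSL and microfibril genes, 1 was higher and 1 lower, and 1 and 0 with GC correction. The higher one was LTBP1, which binds ADAMTSL2. It had a mean of 305 CPM (SD 25.6, n = 3) in GC0643 overexpression and of 240 CPM (SD 20.9, n = 3) in Vector control, which is 0.34 as a log2 fold change and 0.38 with GC correction. MFAP4 and B3GLCT had -0.28 and 0.41, and -0.14 and 0.13 with GC correction. Of 17 tested genes of the path from choline to glycine in which SARDH acts, 4 were higher and 2 lower, and 2 and 0 with GC correction. ALDH7A1, ETFDH and SHMT2 had log2 fold changes of 0.38, 0.38 and -0.31, and of 0.20, 0.17 and -0.16 with GC correction. SPR and QDPR, which make and recycle the cofactor of catecholamine synthesis, had log2 fold changes of -0.27 and -0.22, and of -0.10 and -0.22 with GC correction. Of 9 tested GLUT genes 1 was higher and 1 lower, and 0 and 0 with GC correction. SLC2A13 and SLC2A8 had log2 fold changes of 0.37 and -0.34, and of 0.05 and -0.14 with GC correction. SLC2A12 had 58, 18 and 18 counts with GC0643 overexpression and 17, 13 and 21 with Vector control, with 1 library far above the other 5, and its log2 fold change of 0.92 did not pass the threshold. Of 5 tested exonucleases related to REXO4, 0 were higher and 0 lower with or without GC correction, and AEN, REXO5 and REXO1 had log2 fold changes of -0.25, 0.28 and -0.21.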

How the data were processed

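RNA of HGC-27 cells was measured in 6 libraries made with the NEBNext Ultra RNA kit. Per the labels, the authors used Trimmomatic 0.32 for trimming and HISAT2 2.1.0 for alignment on GRCh38, and deposited raw counts per Ensembl gene from featureCounts 2.0.0. Counting options, strand among them, are not given for these libraries in the sources used here. For tumour RNA the study counted a read for every gene it overlapped, and the same setting here would give reads in shared exons to both genes. Of 58825 genes, 58472 were matched to GENCODE version 44 (GRCh38), which gave positions, exon lengths and the GC content of canonical transcripts. CPM were computed on TMM-scaled totals. In R 4.3.3, genes kept by filterByExpr were scaled by TMM and fitted with edgeR 4.0.16 (glmQLFTest, group as only term), with Benjamini-Hochberg adjustment over 19528 genes. The biological coefficient of variation was 14.8%. Exact permutation tests used CPM. Alternatives were the likelihood ratio test, DESeq2 1.42.0, limma 3.58.1 (voom), other scalings and filters, a replicate block, correction by loess (span 0.3, prior count 1) for GC content or for length, thinning, and leaving out each library. The code was tested on simulated counts. Promoters came from RefSeq, with entries for all 10 genes. The members and lists were chosen with earlier results of these data known. Named genes are the 10 members, genes overlapping FAM163B, interval genes with a mean of at least 10 counts, up to 3 genes per list with the smallest p, and the 3 most alike in profile. Some genes that this rule or the marker lists take are not reported here. Intervals and floors cover counting error only where Poisson. Figures were drawn with matplotlib 3.10.9.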

Additional observations from a re-analysis of the deposited data

How the results depend on the processing

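The count of locus genes past an unadjusted p of 0.05 was 0 in every fit except without Vector control replicate 2, where it was 2 (SURF1 and CACFD1, against 14.2% of all genes tested on the lower side), and without Vector control replicate 3, where it was 1 (REXO4, against 2.66% on the lower side), a range of 0 to 2 leaving out 1 library. None of them passed an adjusted p of 0.05 in any fit. The median log2 fold change of the locus genes ranged from -0.27 to -0.12 leaving out 1 library and was -0.0549 with GC correction, -0.0516 with the replicate block and GC correction and -0.0464 with GC correction without Vector control replicate 2, an alternative chosen after the data were seen. With GC correction, the log2 fold change was 0.0183 for SLC2A6 and 0.0276 for CACFD1, with the block as well it was 0.0201 and 0.0281, and without Vector control replicate 2 it was 0.0761 for SLC2A6 and 0.0499 for REXO4. ADAMTSL2 was at -0.0164 with length correction and ranged from -0.18 to 0.25 leaving out 1 library, negative without GC0643 overexpression replicate 1 or 2 or Vector control replicate 3. Over all genes, those past an adjusted p of 0.05 rose from 0 to 16 with the likelihood ratio test, 1 with DESeq2, 1 with DESeq2 size factors, 224 without a filter on low counts, 24 with the replicate block, 1 with length correction and 2 with the block and GC correction, and ranged from 0 to 3813 leaving out 1 library. Genes past an unadjusted p of 0.05 fell from 3581 to 2259 with the block, 1197 with GC correction and 773 with both, and ranged from 1378 to 7406 leaving out 1 library. The causes were not tested. Libraries of the same number did not deviate together (correlations of -0.21, -0.0277 and -0.31), so the numbers were not taken as pairs. FAM163B and DBH had too few counts for the filter and were not refitted.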
